A study of Gallus gallus with 12 samples.

Results

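The comparison covers the change in open chromatin of the chicken dorsal retina between 2 stages of eye development. Its members are all 101452 peaks of the dorsal retina list at Hamburger-Hamilton stage (HH) 34 and all 106170 peaks of the dorsal list at HH30, 207622 of the 421414 peaks in the 4 lists of the series. The optic fissure margin (OFM) lists hold the other 213792. Membership was set by tissue and stage alone, not by any measured value. The study asked about closure of the optic fissure, the ventral gap of the optic cup, and took dorsal retina as tissue of the same eye without a fissure. The HH34 and HH30 dorsal groups came from wildtype hy-line chicken embryos and had 3 biological replicates each, so 6 of the 12 libraries are used for the main comparison. Each replicate pooled hand-dissected tissue of 10 embryos, and 50000 dissociated cells entered omni-ATAC-seq. Here Tn5 transposase cuts nuclear DNA where it can reach it and tags the cut ends for sequencing, so a peak is a stretch with many such cuts.

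Neural retina begins as a sheet of dividing progenitors, which leave the cell cycle in an overlapping order to form ganglion cells, amacrine and horizontal cells, photoreceptors, bipolar cells and Müller glia. In the chick this differentiation is under way during these stages and spreads from the central retina outwards. Promoters and enhancers in use are usually accessible, and enhancers change more between cell states than promoters do. In tissue pieces, more cells with a site open and a site more open in each cell cannot be told apart. The label of dorsal retina was not checked against marker genes, because no gene was placed beside a peak.

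The authors called peaks once per group over its 3 libraries, so each stage gives 1 list and no value per replicate. No difference below could be held against replicate spread, and none was tested. All counts and shares describe these lists, and 95% Wilson intervals cover counting error only. Per the labels each library had at least 189 M reads, and the read total of single libraries was not used here. The area score that the authors' peak caller gave each peak was used only to rank peaks inside a list. A percentile of 100 marks the highest score of a list, and a percentile shift is the HH34 percentile minus the HH30 percentile of matched peaks.

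Most of the dorsal landscape was shared by the 2 stages, and the unshared peaks were weak ones. Peaks covered 63.4 Mb at HH34 and 64.6 Mb at HH30, with median widths of 384 bp and 382 bp. Both stages covered 55.9 Mb, which is 88.2% of the HH34 and 86.5% of the HH30 bases. With 1 bp of overlap as a match, 12793 HH34 peaks had no HH30 peak (gained, 12.6% of the HH34 list). In the other direction, 17290 HH30 peaks had no HH34 peak (lost, 16.3% of the HH30 list). One-to-one pairs numbered 81809, holding 80.6% of HH34 peaks and 77.1% of HH30 peaks. The HH30 list is the longer, and with both lists cut by area score to equal length the counts were 14398 gained and 14384 lost, near-equal by construction.

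Gained and lost peaks were narrow and ranked low. Gained peaks had a median width of 243 bp, a median percentile of 15.7 and a median −log10 q at the summit of 4.17. Lost peaks had 209 bp, 14.9 and 4.26. One-to-one peaks were 409 bp wide at HH34 and 426 bp at HH30, with −log10 q of 8.50 and 8.78. Along the list the gained share was 43.7% in the lowest 10% of HH34 peaks by score, and the lost share was 58.0% in the lowest 10% of HH30 peaks. No gained and no lost peak stood in the top 10% of its list. In the upper 50% there were 612 gained peaks (4.78% of all gained) and 707 lost peaks (4.09% of all lost). A match by 1 bp is easier for wide peaks, and the area score grows with width. Both lists also end at a lowest score, so a peak near it can drop out by a small change. The low widths and ranks of unmatched peaks thus follow in part from these definitions.

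**Figure D1:**
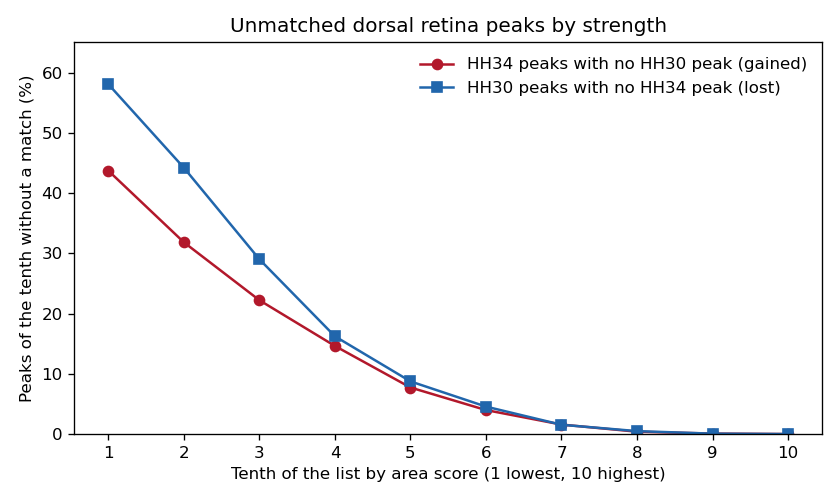
Share of dorsal peaks without a match (y axis, %) in 10 equal bins of the HH34 list (red circles) and the HH30 list (blue squares), ordered on the x axis from lowest to highest area score. The gained share ran from 43.7% to 0 and the lost share from 58.0% to 0, and no peak of the highest bin was unmatched at either stage. The fall with score follows in part from the definitions, since wide peaks match more easily and score higher.

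Gained peaks lay about as far from other peaks as matched ones did, and lost peaks lay further. The median distance of a gained peak to the nearest HH30 peak was 1474 bp, and 40.8% lay within 1000 bp. One-to-one HH34 peaks lay a median of 1341 bp from another HH30 peak than their own, 43.5% of them within 1000 bp. Lost peaks lay a median of 2618 bp from the nearest HH34 peak, with 30.8% within 1000 bp, against 1388 bp and 43.0% for one-to-one HH30 peaks. More than 50 kb from any peak of the other stage were 69 of 12793 gained and 269 of 17290 lost peaks. Of the 81809 one-to-one peaks of each stage, 360 at HH34 and 519 at HH30 lay as far from another peak of the other stage. Matched peaks next to unmatched ones leaned the same way, though most of them shifted by less than 20 points. Of 5485 pairs within 1000 bp of a gained peak, 13.7% rose by 20 percentile points or more and 2.61% fell by as much, against 5.89% and 8.16% of all pairs. Of 5475 pairs within 1000 bp of a lost peak, 2.52% rose and 12.7% fell. The median shifts were 2.71 near gained and −3.83 near lost peaks, against −1.20 over all pairs.

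The 5 gained peaks with the highest area score reached the top 20% of the HH34 list, and all 5 also had a peak in OFM at HH34 and none in OFM at HH30. The highest, chr5:38015001-38016527, was 1527 bp wide and ranked 11198, with −log10 q of 15.1 and the nearest HH30 peak 1081 bp away. The gained peak at chr7:25643591-25644539 ranked 17604 and had the highest −log10 q of all gained peaks, 17.7. A pair at chr5:49328135-49328954 and chr5:49326755-49327916 ranked 17667 and 18585, with over 6 kb to the nearest HH30 peak. The peak at chr1:90981179-90983005 ranked 18867 and was 1827 bp wide, with a −log10 q of only 6.82. It had no HH30 peak within 25 kb and its nearest one lay 46877 bp away, while its OFM counterpart at HH34 ranked 89553. All coordinates are galGal6, counted from 1.

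The 5 lost peaks with the highest score ranked between 16275 and 20900 in the HH30 list, and all 5 had an OFM peak at HH30. The highest was chr1:10410772-10412435, 1664 bp wide with −log10 q of 10.2. Of the 5 HH30 peaks within 25 kb of it, itself included, 4 were lost. The lost peaks at chr7:176379-177005, chr3:11621785-11622572 and chr2:147605166-147605953 ranked 19322, 20042 and 20501, and no OFM peak overlapped them at HH34 either. The fifth, chr10:10633672-10634454, had −log10 q of 15.5 and kept an OFM peak at HH34, at rank 57053 there, against rank 19636 in OFM at HH30.

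Matched peaks changed little in place, width or order. Summits of one-to-one pairs lay a median of 3 bp apart, 32.96% at the same base and 69.5% within 10 bp. Only 2707 pairs (3.31%) had summits over 200 bp apart. The median width ratio, HH34 over HH30, was 0.986 with an interquartile range of 0.904 to 1.04. The median percentile shift was −1.20, with an interquartile range from −7.83 to 3.21. The Spearman correlation between the HH34 and the HH30 percentiles was 0.888 over 81809 pairs, which share a reference genome and a peak caller. Of the top 1000 HH34 peaks, 828 overlapped a peak among the top 1000 of HH30. Of 9868 pairs with a peak in the top 10% of either list, 3 shifted by 20 points or more. The percentile scale itself limits this count. A peak in the top 10% at HH30 cannot rise by 20 points, and one in the top 10% at HH34 cannot have fallen by 20.

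**Figure D2:**
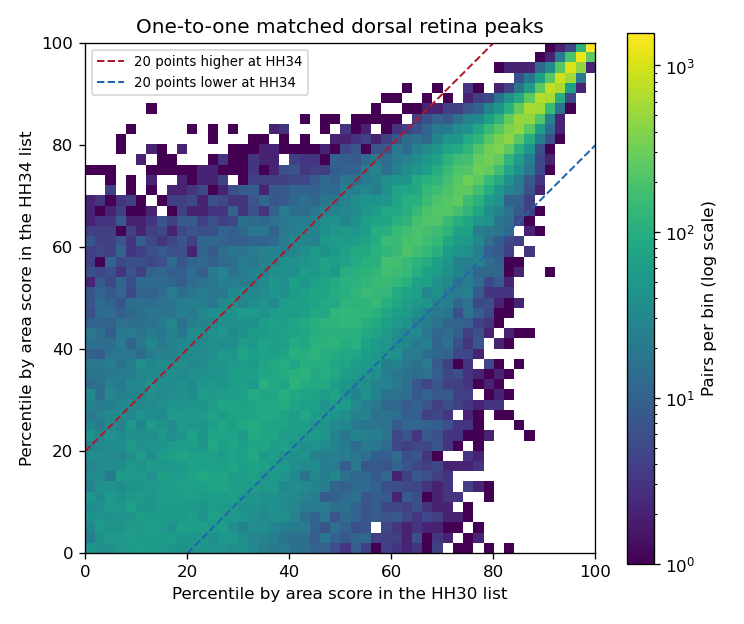
Percentile by area score of each one-to-one pair in the HH34 list (y axis) against the HH30 list (x axis). Colour gives pairs per bin on a log scale, and dashed lines mark shifts of 20 points. Pairs spread widely at low percentiles and close up towards 100, and the Spearman correlation over all pairs was 0.888.

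Pairs past 20 points were called risen or fallen, and pairs whose widths differed at least 1.5 times were called widened or narrowed. There were 4816 risen pairs (5.89% of pairs) and 6678 fallen pairs (8.16%). This order depended on list length, since lists cut to equal length gave 5639 risen and 5280 fallen pairs. There were 4068 widened pairs (4.97%) and 6154 narrowed pairs (7.52%). The pairs just inside and just outside the limits had shifts of 20.007 and 19.997 and width ratios of 1.5 and 1.499. Risen pairs had median widths of 418 bp at HH34 and 270 bp at HH30, and median −log10 q of 7.20 and 4.18. Fallen pairs had 227 bp at HH34 and 368 bp at HH30, and −log10 q of 4.37 and 7.44.

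Rank and width moved together, and the area score grows with width by its construction. Of the risen pairs, 1964 were also widened (40.8% of risen, 48.3% of widened), and none was narrowed. Of the fallen pairs, 2564 were also narrowed (38.4% of fallen, 41.7% of narrowed), and 2 were widened. Among pairs whose widths differed by less than 1.1 times, 518 rose and 554 fell, against 4816 and 6678 of all pairs. The total of such pairs is not given here. With an interquartile range of the width ratio of 0.904 to 1.04, they are a large part of all pairs. Ranked by area score over width, 6359 of all pairs rose and 8026 fell. Width changes were often one-sided, with at least 90% of the added bases on 1 edge in 54.9% of widened pairs, and at least 90% of the removed bases on 1 edge in 57.8% of narrowed pairs. Among 40908 pairs in the upper 50% of both lists, 948 widened (2.32%) and 1834 narrowed (4.48%).

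The 5 largest rises were between 73.0 and 74.8 points. At chr3:102663912-102664706 the HH34 peak was 795 bp wide at rank 24466 and the HH30 peak 204 bp wide at rank 105026, with summits 1 bp apart and −log10 q of 9.96 and 3.32. At chr10:13358606-13360289 the HH34 peak was 1684 bp wide at rank 12979, and the HH30 peak 193 bp wide at rank 92118. That pair had 9 gained peaks among 26 HH34 peaks within 25 kb, the nearest gained one 364 bp away, and no lost peaks. At chr7:6700440-6701306 the rise was 73.5 points, and 4 of the 11 pairs within 25 kb rose, itself included. The pairs at chr5:52070898-52071660 and chr2:33773508-33774515 had shifts of 73.4 and 73.0 in dorsal retina, and the same sites shifted by 73.3 and 50.5 in OFM. No OFM shift was available for the sites on chromosomes 3, 10 and 7. The neighbourhoods of these sites were mixed. Within 25 kb of the chromosome 2 site 3 peaks were gained and 2 lost, and the median shift was −1.81. Near the chromosome 5 site 2 were gained and 2 lost, and the median shift was 6.83. The chromosome 3 site had no gained or lost peak within 25 kb. Of the 3 pairs there 1 fell, and the median shift was 8.45.

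The 5 largest falls were shifts of −72.1 to −81.9 points, and the shift in OFM was smaller in size at each of the 5 sites. At chr4:40414584-40414769 the HH34 peak was 186 bp wide at rank 99819, and the HH30 peak 929 bp wide at rank 17515. Its −log10 q was 3.54 at HH34 and 16.1 at HH30, with both summits at the same base, and 7 of the 16 HH30 peaks within 25 kb were lost. In OFM that site shifted by −11.7 points and kept rank 24102 at HH34. The pairs at chr9:18808883-18809085 and chr1:64532831-64532955 shifted by −78.4 and −74.4 in dorsal retina and by −23.5 and −19.2 in OFM. The pairs at chr7:10002639-10002804 and chr3:94942198-94942342 shifted by −74.3 and −72.1 in dorsal retina and by −33.2 and −37.8 in OFM. Lost peaks within 25 kb numbered 2 at the chromosome 9 site, 4 on chromosome 1, 3 on chromosome 3 and none on chromosome 7. The sites were picked for their dorsal values, so this contrast with OFM is a description of picked extremes.

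Among strong pairs the width ratios reached about 4 in both directions with the summit nearly in place. The largest widening was at chr5:3037439-3038285, with 847 bp at HH34 and 206 bp at HH30. The next were chr3:3331664-3332890, with 1227 bp and 299 bp, and chr28:3708948-3710267, with 1320 bp and 329 bp. The largest narrowing was at chr2:43041388-43041688, with 301 bp at HH34 and 1304 bp at HH30. The next were chr15:1370803-1371069, with 267 bp and 1107 bp, and chr1:84661439-84661732, with 294 bp and 1129 bp. In all 6 pairs the summits lay at most 10 bp apart.

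Splits and joins were about equal in number. By definition such a peak bridges the gap between its pieces, which favours wide peaks, and the area score grows with width. The widths and ranks given here thus follow in part from the definition. There were 2169 HH34 peaks joining 4647 HH30 peaks (2.14% of the HH34 list) and 2159 HH30 peaks split into 4425 HH34 peaks (2.03% of the HH30 list). Joined HH34 peaks had a median width of 1589 bp, and split HH30 peaks 1298 bp, and 73.9% and 70.5% of them stood in the top 25% of their lists. Most involved 2 pieces, in 1938 joins and 2059 splits. The gap between such pieces had a median of 125 bp in joins and 121 bp in splits, close to the 101 bp that is the smallest gap between neighbouring peaks in either list. Chromosomes 1 to 5 held 28.6% of joins, against 46.1% of the HH34 list, and chromosomes 11 to 33 held 53.2% of joins, against 32.7% of the list. Splits were spread like the HH30 list, with 48.2% on chromosomes 1 to 5, which held 47.99% of the list, and 30.6% on chromosomes 11 to 33, which held 30.3%.

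The join with most pieces was chr1:88641273-88648044 at HH34, a peak of 6772 bp at rank 4977 over 7 HH30 peaks, of which the best ranked 22972. Of the 3 joins of 6 pieces the one with the highest area score was chr25:496600-501498, a peak of 4899 bp at rank 1460 whose best HH30 piece ranked 11960. Splits reached at most 4 pieces, in 7 HH30 peaks. The 2 of these with the highest area score were chr8:6491896-6497042 and chr4:5115302-5119121, peaks of 5147 bp and 3820 bp at ranks 1607 and 3066. Each gave 4 HH34 peaks, of which the best ranked 10084 on chromosome 8 and 12485 on chromosome 4.

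The change from HH30 to HH34 was uneven over the chromosomes. Chicken chromosomes range from a few large ones to many small ones, the microchromosomes, which are known to be dense in genes. Gene density and base composition were not measured here, and the cause of the unevenness was not tested. On chromosomes 11 to 33, 15.3% of HH34 peaks were gained (95% interval 14.95 to 15.73) and 10.7% of HH30 peaks were lost (10.4 to 11.1). On chromosomes 1 to 5, 11.2% were gained (10.9 to 11.5) and 19.3% were lost (19.0 to 19.7). Gained peaks per lost peak came to 1.47 on chromosomes 11 to 33, to 0.634 on chromosomes 6 to 10, to 0.533 on chromosomes 1 to 5 and to 0.542 on Z. On W 13 peaks were gained and 16 lost. Each of chromosomes 1 to 13 had fewer gained than lost peaks, and each of the 19 other autosomes had more. Gained peaks made up 48.2% (44.6 to 51.8) of unmatched peaks on chromosome 13 and 51.3% (47.6 to 55.0) on chromosome 14, so the break was not sharp. Counts of single chromosomes with lists of equal length are not given. Over the 32 autosomes the Spearman correlation between gained per lost peak and the position of the last peak, a stand-in for chromosome length, was −0.942. With peaks per Mb it was 0.412.

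Matched pairs showed the same spread. On chromosomes 11 to 33, 8.02% of pairs rose and 4.93% fell, and on chromosomes 1 to 5, 4.90% rose and 10.0% fell. The median shift was 0.313 on chromosomes 11 to 33 and −2.26 on chromosomes 1 to 5. Ranked within each chromosome, these medians were 0.0776 and −1.99. Ranked by −log10 q they were 0.871 and −2.28, and by area score over width 0.842 and −1.86. Ranks within a chromosome cannot show 1 chromosome moving against another. In each ranking the medians also depend on the gained and lost peaks, which hold ranks in only 1 list. Medians for lists of equal length are not given. Widened pairs made up 7.44% on chromosomes 11 to 33 and 3.67% on chromosomes 1 to 5, and narrowed pairs 5.12% and 8.72%. In the upper 50% of the lists the split of unmatched peaks was of the same kind. There, chromosomes 11 to 33 had 257 gained (1.48%) and 113 lost peaks (0.678%), and chromosomes 1 to 5 had 240 gained (1.05%) and 433 lost peaks (1.73%). With lists of equal length, gained peaks made up 67.1% of all unmatched peaks on chromosomes 11 to 33 and 41.8% on chromosomes 1 to 5, against 59.6% and 34.8% with the full lists.

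Several small chromosomes stood far from the rest, though not strictly in order of length. On chromosomes 30 to 33 together, 502 peaks were gained (27.7%) and 47 lost (3.20%), and 200 pairs rose (16.8%) while 9 fell (0.758%). Chromosome 31 had the highest gained share, 38.8% of its HH34 peaks, with 104 gained and 9 lost and a median shift of 11.1. Chromosome 30 had the highest ratio, with 89 gained and 5 lost. Chromosome 25 had 193 gained and 16 lost, chromosome 33 had 285 and 29, and chromosome 16 had 30 and 3. Chromosome 32, the shortest by its last peak, had 24 gained (17.8%) and 4 lost. At the other end chromosome 4 had 768 gained and 1719 lost, the lowest ratio, 0.447.

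**Figure D3:**
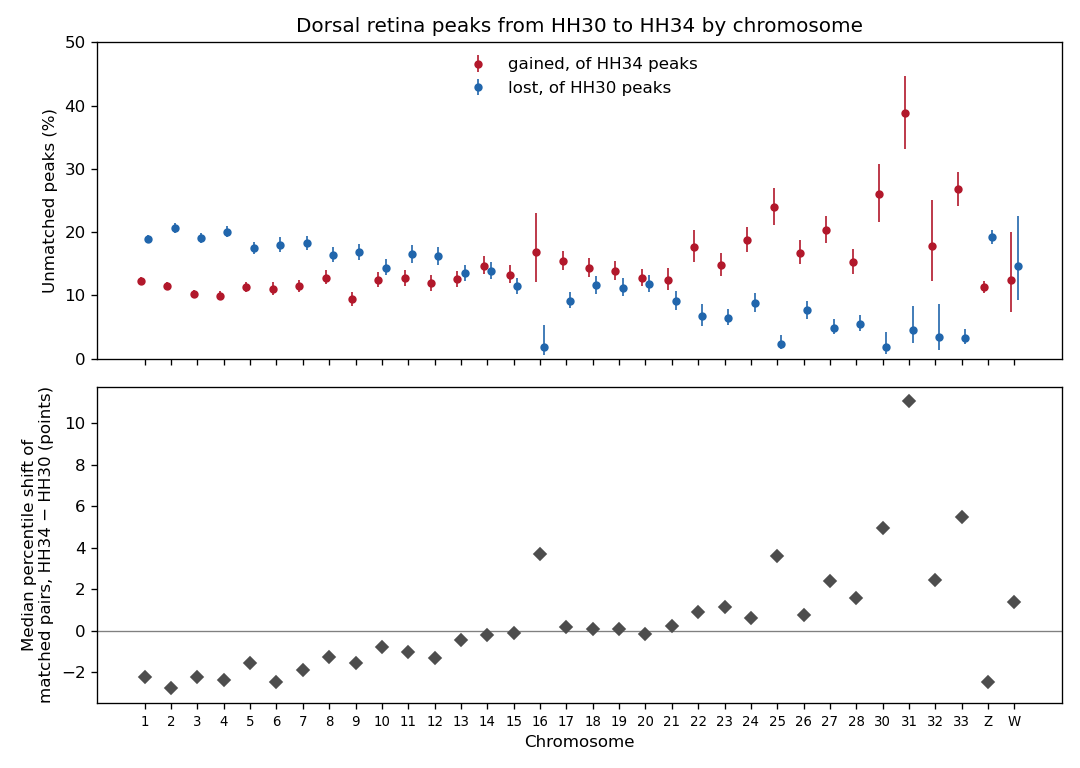
Top, share of HH34 peaks gained (red) and of HH30 peaks lost (blue) on each chromosome, in %, with 95% Wilson intervals. Bottom, median percentile shift of one-to-one pairs on each chromosome. Lost shares exceed gained shares on chromosomes 1 to 13, Z and W, and the gained share is highest on chromosome 31, at 38.8%.

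Large chromosomes held the same contrast between their ends and their interior. Within 1 Mb of either end of chromosomes 1 to 5, 18.2% of HH34 peaks were gained (310 of 1704) and 9.27% of HH30 peaks were lost (148 of 1596). More than 20 Mb from both ends the shares were 10.5% and 20.2%, and the median shift was −2.62, against 0.401 in the end stretches. Between 1 and 5 Mb they were 14.7% and 14.9%, and between 5 and 20 Mb 10.9% and 19.8%. On each of the 5 chromosomes the gained share was higher and the lost share lower at the ends than beyond 20 Mb. On chromosome 2 the gained share was 24.1% at the ends and 11.0% beyond 20 Mb, and the lost share 8.92% and 20.9%. On chromosomes 1 to 5 the lost share also fell with the local density of peaks, to 13.7% in the densest windows of 500 kb, against 27.9% in the sparsest, while the gained share stayed between 10.7% and 11.8%. Over all chromosomes the lost share was 11.4% in the densest and 25.7% in the sparsest windows, and the gained share lay between 11.5% and 13.3%.

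Of 2097 windows of 500 kb, 538 had more gained than lost peaks, 1428 had more lost and 131 had as many of each. With lists of equal length 749 windows had more gained and 1215 more lost peaks. The 3 windows with most gained over lost peaks were on small chromosomes or near an end. They were chr24:2000001-2500000 with 56 of 166 HH34 peaks gained and 7 peaks lost, chr33:3000001-3500000 with 50 of 142 and 3, and chr10:19500001-20000000 with 48 of 179 and 6. A ranking by the difference in counts favours windows with many peaks. Chromosome 10 had its last peak at 21092472. The 3 windows with most lost over gained peaks were chr2:8500001-9000000, chr9:20000001-20500000 and chr1:38000001-38500000. They had 2, 3 and 2 gained peaks, and lost 26 of 78, 26 of 68 and 24 of 84 HH30 peaks. Next in order of gain came 2 windows with the same difference. The window chr25:1000001-1500000 had 41 of 74 HH34 peaks gained, no lost peaks and a median shift of 15.4. The last full window of Z, chrZ:82000001-82500000, had 42 of 70 gained, 1 lost and a median shift of 0.438.

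Some risen and fallen pairs stood beside others of their kind along the chromosome. Of risen pairs, 22.5% lay in runs of at least 2 neighbouring risen pairs, and of fallen pairs 23.9% in runs of fallen pairs. Over all pairs 5.89% rose and 8.16% fell, so some neighbours of like kind arise from these rates alone. The share in runs to be had from the rates was not worked out. There were 86 runs of 3 or more risen and 95 of 3 or more fallen pairs. One of the 2 longest risen runs, chr1:88613030-88653266, had 9 pairs over 40.2 kb with shifts of 22.3 to 34.6. Its 16 HH34 peaks covered 35735 bp, and its 30 HH30 peaks covered 22242 bp, of which 21 were joined into 5 HH34 peaks, the join of 7 among them. Next to it lay the widest peak of each dorsal list, 31678 bp at HH34 and 25552 bp at HH30. The other run of 9, chr11:20038347-20050963, held 15 HH34 and 9 HH30 peaks, 6 gained and none lost, close to the last peak of chromosome 11 at 20155976. Runs of 8 at chr33:3559052-3587814 and chr33:3598715-3736737 held 6 and 5 gained and no lost peaks. The longest fallen run, chr4:80320898-80394315, had 6 pairs over 73.4 kb with shifts of −43.5 to −23.6, 6 HH34 and 10 HH30 peaks, and 4 lost peaks.

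**Figure D4:**
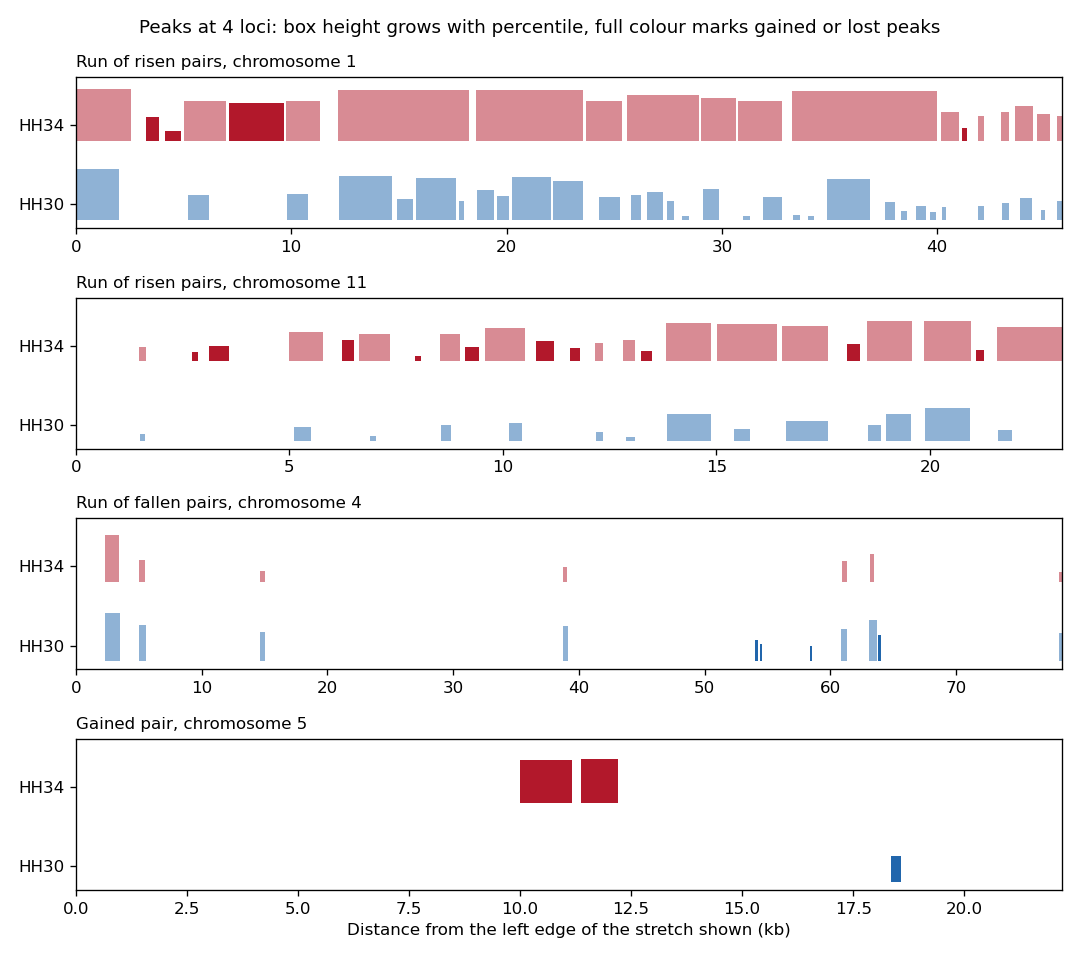
Peaks at 4 stretches, with HH34 (red) above HH30 (blue), x axis in kb from the left edge. Box height grows with the percentile of the peak, full colour marks gained or lost peaks and pale colour matched ones. The chromosome 1 stretch shows 20 HH34 peaks over 32 HH30 peaks, of which 16 and 30 belong to the run. A very wide peak runs past its left edge, and the chromosome 4 run shows 4 lost HH30 peaks.

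Most gained peaks of the upper 50% were absent from OFM at HH30 and present there at HH34. Most lost peaks of the upper 50% had an OFM peak at HH34, but less often than one-to-one HH30 peaks of the upper 50%. These 2 sets differ in strength. Of the 707 lost peaks of the upper 50%, 484 stood in the 10% of the HH30 list just above its middle, and none in the top 10%. Of the 47634 one-to-one HH30 peaks of the upper 50%, 9435 stood in the top 10%. Of the 12793 gained peaks, 60.5% overlapped an OFM peak at HH34 and 12.6% an OFM peak at HH30. Of the 612 gained peaks in the upper 50%, 97.1% and 11.6% did, and 85.5% overlapped an OFM peak at HH34 alone. Of the 17290 lost peaks, 37.4% overlapped an OFM peak at HH34 and 79.2% one at HH30. Of the 707 lost peaks in the upper 50%, 59.8% (56.2 to 63.4) had an OFM peak at HH34 and 98.0% had one at HH30, and 38.2% overlapped an OFM peak at HH30 alone. The OFM list at HH34 held 105103 peaks, more than the dorsal list of that stage. One-to-one HH34 peaks overlapped OFM peaks in 96.3% at HH34 and 92.7% at HH30. In the upper 50% these shares were 99.8% and 98.0%. For one-to-one HH30 peaks of the upper 50% they were 99.4% at HH34 and 99.8% at HH30.

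The shifts of matched pairs in dorsal retina ran along those in OFM. Over 70354 pairs that were one-to-one in all 4 lists, the Spearman correlation between the dorsal and the OFM shift was 0.774, a description of lists that share a caller and a genome. Over all of them 41.3% shifted upwards in OFM and the median OFM shift was −0.63. Of all 4816 risen pairs 2623 were among them, and 96.7% of these shifted upwards in OFM too, with a median OFM shift of 24.9 points. Of all 6678 fallen pairs 5765 were among them, a larger part. Of these, 3.57% shifted upwards in OFM, and the median OFM shift was −16.9. The 70354 pairs held 2673 of the 4068 widened ones, of which 88.4% were wider at HH34 in OFM. They held 5332 of the 6154 narrowed ones, of which 90.3% were narrower. Over all 70354, 39.9% were wider and 58.3% narrower. The largest differences, picked after the values were seen, included chr26:2968940-2969548, with a shift of 61.3 in dorsal retina and 4.78 in OFM. In the other direction, chr25:1357744-1359566 shifted by 10.7 in dorsal retina and 84.3 in OFM.

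**Figure D5:**
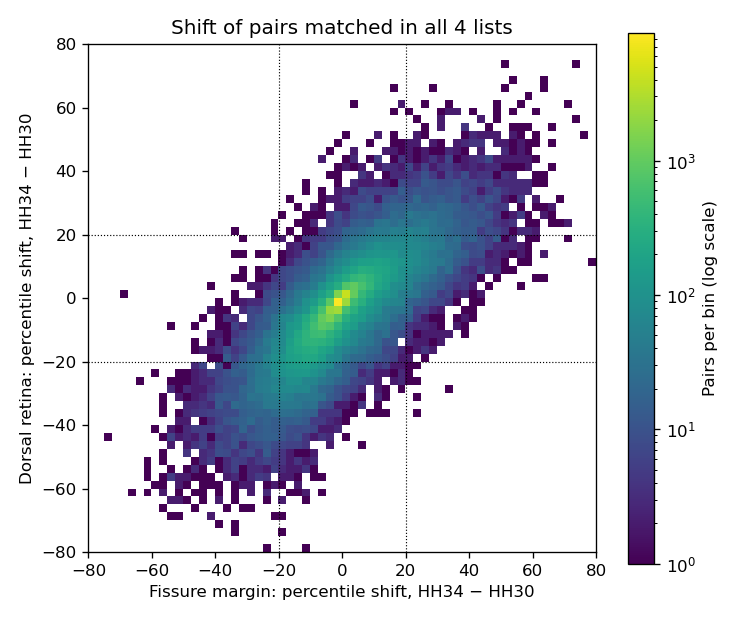
Percentile shift, HH34 minus HH30, in dorsal retina (y axis) against OFM (x axis) for 70354 pairs. Colour gives pairs per bin on a log scale, and dotted lines mark 20 points in either direction. Most pairs lie along the diagonal, and the Spearman correlation was 0.774.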

How the data were processed

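The 4 peak lists were made from chicken omni-ATAC-seq libraries, sequenced as 75 bp paired ends per the labels. The submitters' processing notes name Trim Galore, cutadapt 1.16, FastQC, Bowtie2 2.3.4.3, SAMtools 1.6, Genrich 0.6, deepTools 3.5.0 and the build galGal6 (GRCg6a). Filters, Genrich settings and any shift of Tn5 insertions are not given in the sources used here, and each can change peak number and width. Peaks were called jointly over the 3 libraries of a group, per the labels, so 1 library could carry a peak unseen.

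The deposited lists have 10 columns without header. Genrich's area score and its −log10 q for each summit are the authors' deposited values. The scale of the area score is not recorded, so it was compared between lists only as a rank. The smallest area score was just above 200.0 in each list, and a weak peak can leave a list by a small change around that limit. A second deposited score, limited to 1000, was not used, nor was the −log10 p.

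Peaks were matched by 1 bp of overlap and sorted into gained, lost, one-to-one, split, joined and many-to-many groups (121 of the last) with Python 3.11.15, numpy 2.4.6, pandas 2.3.3 and scipy 1.17.1. The matching was tested on simulated lists. Named were the 5 gained and 5 lost peaks of highest area score, the 5 largest rises and falls, the 3 strongest widenings and narrowings in the upper 50% of both lists, the 2 splits and 2 joins with most pieces (ties by area score) and the 3 windows at either extreme. Runs, further windows and dorsal against OFM extremes were chosen after the values were seen. The comparison, its measures and its chromosome classes were chosen with earlier results of these data known. Gene names, gene lists and sequences were not used: the gene table at hand is of another build, GRCg7b, whose last gene on chromosome 1 ends at 196443699, before the last peak at 197606554.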

Additional observations from a re-analysis of the deposited data

How the results depend on the processing

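No paired analysis was possible because each group has 1 joint list and no value per replicate. For the same reason leaving out each replicate was not run, and gene annotation was not run for want of the build's genes. Matching by 50% reciprocal overlap gave 20843 gained and 25561 lost peaks, more by construction. Matching by summits at most 200 bp apart gave 18083 gained and 22801 lost peaks. In the upper 50% of a list 612 peaks were gained and 707 lost, and with −log10 q at or above the list's median 439 and 659. With every peak in the upper 50%, 519 splits and 587 joins were left. Widened and narrowed pairs numbered 1614 and 2304 at 2 times, and 948 and 1834 in the upper 50% of both lists. Risen and fallen pairs numbered 11184 and 16801 at 10 points and 1938 and 2493 at 30 points. They numbered 518 and 554 among pairs with widths within 1.1 times, an alternative chosen after seeing the data. Ranked by area score over width, they numbered 6359 and 8026. The share of gained among unmatched peaks on chromosomes 1 to 5 was 34.8%, and became 41.8% with lists of equal length and 35.7% in the upper 50%. On chromosomes 11 to 33 it was 59.6%, and became 67.1% and 69.5%. The share of risen among risen and fallen pairs on chromosomes 1 to 5 was 32.9%, and became 41.7% with equal length and 36.5% when ranked by area score over width. On chromosomes 11 to 33 it was 61.9%, and became 70.9% with equal length. Windows with more gained than lost peaks made up 27.4% of the 500 kb windows with unequal counts and 25.02% of those of 1 Mb, and 38.1% at 500 kb with lists of equal length, added after seeing the data. The 10 named risen and fallen pairs kept their direction when ranked by −log10 q, by area score over width and within each chromosome. These 30 values had sizes of 32.2 to 82.6 points. The pairs were picked for the largest shifts by area score, so a kept direction was likely from that choice. For changes beyond those that follow from the alternative itself, the cause was not tested. Depth per library is unknown here, so a peak absent from a list was not called there, which does not show closed chromatin.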
